A study of Homo sapiens with 6 samples.

Results

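SRM and PAOX, the genes of a synthetic and of an oxidative enzyme of polyamine metabolism, were examined in RNA-seq of HT-29 cells. They are 2 of the 5681 genes in the deposited table, and they were picked by name with their lower level after OGT depletion already known. Their difference between the groups is therefore given as a description, without a test. HT-29 is an established human colorectal cancer cell line. The libraries came from cells carrying a shScramble control hairpin (Scramble, n = 3, numbered 1 to 3 in the labels, genotype WT) or a hairpin against OGT (shOGT, n = 3, numbered 4 to 6, genotype OGT knock down). OGT is the transferase that places O-GlcNAc on nuclear and cytosolic proteins. The study used lentiviral hairpins, more than a single hairpin against OGT is listed among its oligonucleotides, and the sources do not say which was sequenced or whether the cells were a pool or a clone. All 6 libraries carried a hairpin, and cells without any were not part of the comparison. The labels do not say whether the 3 libraries of a group came from separate cultures, so p-values measure the spread between these libraries, which may be technical.

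Polyamines are small positively charged molecules that bind nucleic acids and are needed for growth and translation. Ornithine decarboxylase makes putrescine from ornithine, spermidine synthase (SRM) adds an aminopropyl group to give spermidine, and spermine synthase adds another to give spermine. The aminopropyl groups come from decarboxylated S-adenosylmethionine, which ties the pathway to the methionine cycle. In the reverse direction, SAT1 acetylates spermine and spermidine, and the peroxisomal oxidase PAOX cleaves the acetylated forms back to spermidine and putrescine, releasing hydrogen peroxide. SMOX oxidizes spermine directly. SRM and ODC1 are textbook targets of c-Myc, the transcription factor that the study is about.

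SRM (ENSG00000116649) lies on the minus strand of chromosome 1, from 11054584 to 11060024 of GRCh38. Its transcript with the longest coding sequence in GENCODE 29 had 8 exons and 1266 bases. The sequence before its start site is shown because SRM is a c-Myc target and the data concern a fall of its transcript. RefSeq (GRCh38.p14) gives the 250 bases upstream of the start, at chr1:11060019-11060268 on the minus strand, written 5′ to 3′ with the letters CACGTG in capitals:
SRM: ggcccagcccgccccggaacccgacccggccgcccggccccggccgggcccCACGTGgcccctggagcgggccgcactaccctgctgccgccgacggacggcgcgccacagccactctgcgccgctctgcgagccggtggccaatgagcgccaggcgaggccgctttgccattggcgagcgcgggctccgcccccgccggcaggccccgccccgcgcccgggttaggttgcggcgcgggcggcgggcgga

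CACGTG is the canonical E-box read by c-Myc with its partner MAX. It is its own reverse complement, so a match on one strand is a match on both. In SRM it sat 199 to 194 bases before the start site, in a stretch of which 82% of the bases were G or C. Among all 35116 RefSeq promoters of 300 bases (250 before to 50 after the start), 7.26% held CACGTG, or 8.77% of the 27305 genes counted over all their starts. Of the genes of the table lower in shOGT with a promoter sequence, 232 of 1903 held it (12.2%), against 177 of 1446 of the higher ones (12.2%). The motif was thus found at a like share on both sides of the comparison. Promoters were matched for 10 of the 15 genes of the polyamine, methionine and arginine lists that were in the table. SRM and ASS1, the urea cycle enzyme that makes argininosuccinate, were the 2 of these 10 with the motif. PAOX was not among the 10, because no promoter sequence was available for it, so it was not searched. The 30 bases around it are set side by side for SRM (chr1:11060200-11060229, minus strand) and ASS1 (chr9:130444878-130444907, plus strand), with CACGTG in capitals:
SRM: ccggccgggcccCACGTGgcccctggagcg
ASS1: gcgcgtccccgcCACGTGtccccggtcacc
In ASS1 the motif sat 71 to 66 bases before the start, and the promoter of another RefSeq start of ASS1 did not hold it. A match of letters is not evidence of binding in these cells.

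Each value is a normalized count, the number of reads of a gene divided by a size factor of its library, as the authors deposited it. OGT, examined as a check of the labels, held 9628 to 11638 normalized counts in the Scramble group against 484 to 621 in the shOGT group, in the direction the labels state. The whole reads that the values stand for, summed over the table, lay between 4145921 and 4504303 per Scramble library and between 3302558 and 3471647 per shOGT library, which are not the depths of the libraries. Genes under a 2-fold change in the deposited comparison were left out of the table. For that reason 5636 of 5671 genes tested here, or 99.4%, passed a 2-fold change at an adjusted p under 0.05 (limma, Benjamini-Hochberg), with 47.2% lower and 52.2% higher in shOGT. Of 14 colorectal epithelium markers, 5 were in the table, with KRT19, KRT20 and CDH17 higher and VIL1 and LGALS4 lower in shOGT. Their summed level was 9062 to 10932 normalized counts per Scramble library against 18490 to 20474 per shOGT library. The rise of this sum was mostly that of KRT19 (means 4740 and 12388) and KRT20 (877 and 5641). LGALS4 went from a mean of 2201 to 561 and VIL1 from 1891 to 868, so the sum does not stand for each marker. EPCAM, CDH1, KRT8, KRT18 and CDX2 were outside the table and were not analysed here. Of 9 fibroblast markers only PDGFRB was listed, at 0 to 1.80 normalized counts in Scramble and 10.5 to 17.1 in shOGT, whereas COL1A1, COL1A2 and VIM were outside the table. Of 9 blood and endothelial markers, LYZ, CSF1R and PECAM1 were listed, all higher in shOGT, with a summed level of 7967 to 8677 in Scramble and 15846 to 17617 in shOGT that was mostly LYZ. PTPRC, CD3E and CD68 were outside the table. The part of these markers in the results for SRM and PAOX was not tested.

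SRM was among the more abundant transcripts of the table in the control cells, above 84.3% of its genes by normalized count, and was several-fold lower after OGT depletion. The normalized counts of SRM were 1015, 1110 and 1084 in Scramble libraries 1, 2 and 3, and 215, 156 and 190 in shOGT libraries 4, 5 and 6. The lowest Scramble library was 4.73-fold above the highest shOGT library, so the groups did not overlap. Since the table is limited to genes that differed between these libraries, a lack of overlap here or below is not particular to a gene. The means were 1070 ± 49.4 and 187 ± 29.3 normalized counts (SD, n = 3 each), so that 17.5% of the control level remained. The log2 fold change was −2.52 (standard error 0.13), taken on log2(normalized count + 1), where the pseudocount makes the change of low genes look smaller. The values rested on 3554 reads in Scramble and 517 in shOGT, which gave a fall of 5.71-fold with a 95% interval of 5.21 to 6.28 (exact binomial, counting error only). The coefficient of variation between libraries was 4.62% in Scramble and 15.7% in shOGT, where counting alone gives 2.91% and 7.62%. Library 5 was the lowest of the shOGT libraries and library 1 the lowest of the Scramble libraries. Since these are bulk libraries, fewer cells with the transcript and less of it per cell cannot be told apart.

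**Figure D1:**
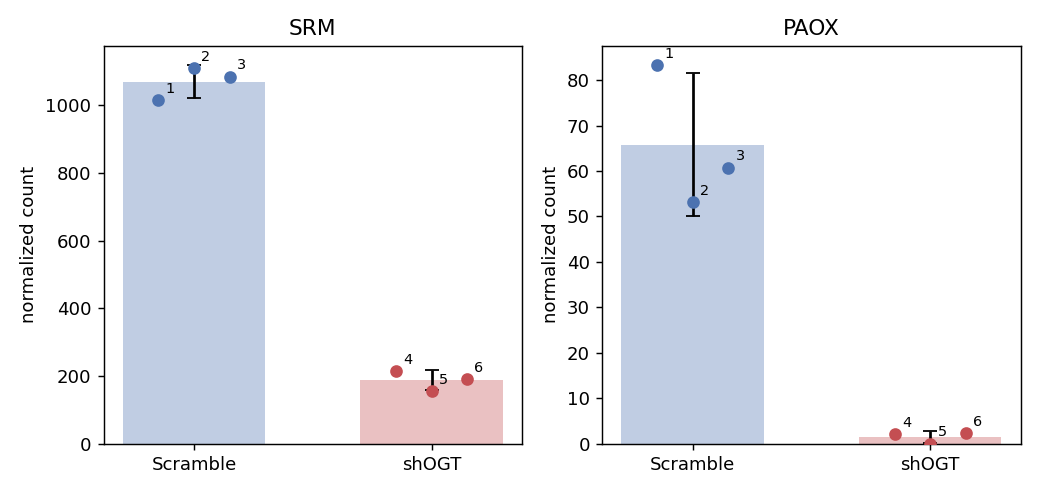
Normalized counts (vertical axes, linear from 0) of SRM (left) and PAOX (right) in the 3 Scramble and 3 shOGT libraries. Bars are means, error bars are SDs, and points are libraries marked with their numbers. Every shOGT library lies below every Scramble library for both genes, and PAOX is at 0 in library 5.

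PAOX was near the middle of the table in the control cells, above 44.7% of its genes by normalized count, and was close to undetected after OGT depletion. PAOX (ENSG00000148832, plus strand of chromosome 10 from 133379234 to 133391694, 7 exons and 1858 bases in the transcript with the longest coding sequence) had 83.4, 53.2 and 60.7 normalized counts in Scramble libraries 1, 2 and 3. In shOGT libraries 4, 5 and 6 it had 2.11, 0 and 2.28, which are 2, 0 and 2 reads. Scramble library 1 stood above the other two, and the lowest Scramble library was 23.4-fold above the highest shOGT library. The means were 65.8 ± 15.7 and 1.46 ± 1.27 normalized counts (SD, n = 3 each). Over the pooled reads, 219 in Scramble and 4 in shOGT, the level retained was 2.20% with a 95% interval of 0.594% to 5.71% (exact binomial, counting error only). This is a fall of 45.5-fold with an interval of 17.5 to 168.

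The coefficient of variation of PAOX between libraries was 23.9% in Scramble, against 11.7% from counting. In shOGT it was 86.8%, against 86.6% from counting, a comparison that 4 reads leave with little information. With so few reads the log2 fold change depends on the pseudocount, with −4.92 (standard error 0.49) at a pseudocount of 1 and −6.33 at 0.1. The end of PAOX shares exon bases with AL360181.3, a protein-coding gene model on the same strand that runs on across MTG1. It covers 6.94% of the exon bases of PAOX, and 2.47% of the stretches of 75 bases in its transcript occur in that gene too. For SRM, 0 of 1192 such stretches occur in a transcript of another gene.

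Both genes were among the genes lower in shOGT, a direction shared by 2691 of the 5671 genes tested. Of all genes tested, 47.2% were lower past a 2-fold change at an adjusted p under 0.05. Among 5671 genes, 2 had a lower log2 fold change than PAOX and 293 had a lower one than SRM. PAOX thus stood at the far edge of the lower genes, whose median was −1.54. The genes below SRM made up 10.9% of the 2691 lower genes. After rescaling with size factors from the median of ratios over this table, SRM was at −1.80 and PAOX at −4.41. The rescaling raised the median of all log2 fold changes by 0.71, from 1.05 to 1.76, further from no change. Median of ratios takes most genes as unchanged, whereas the table lists only genes past a 2-fold change. Values after rescaling, here and below, show how far a result depends on the scaling. They cannot decide whether a gene is past a 2-fold change.

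**Figure D2:**
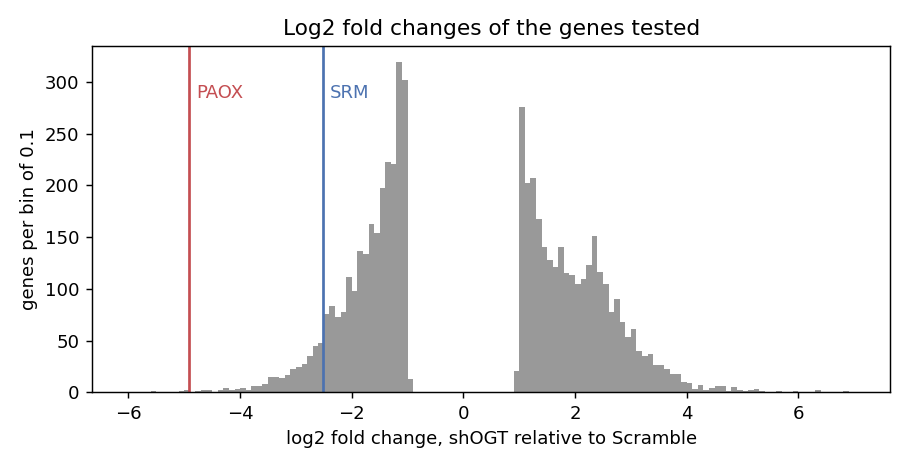
Log2 fold changes of shOGT relative to Scramble (horizontal axis) for the 5671 genes tested, as a histogram with the number of genes per bin of 0.1 on the vertical axis. Blue and red lines mark SRM at −2.52 and PAOX at −4.92. The gap around 0 is there because the table lists only genes past a 2-fold change, which also had an adjusted p under 0.05 in the authors' comparison.

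The transcripts of both genes were rich in G and C. The share of G and C was 63.7% in SRM and 63.3% in PAOX, above 92.9% and 91.7% of the genes of the table. The median was 54.7% in the genes lower in shOGT and 46.8% in the higher ones. Both transcripts were also shorter than the median of 2463 bases over the table. The part of base composition and length in the falls of SRM and PAOX was not tested.

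The other genes of polyamine metabolism were followed through hand-written lists of 58 genes in all, of which 15 were in the table. Of the 13 listed genes besides SRM and PAOX, 12 were lower in shOGT and OAZ3 was higher, with a median log2 fold change of −1.29. Among all genes tested, 47.2% passed the test as lower and 52.2% as higher. All 13 passed the test, as did 99.4% of the whole table, so the number that passed says nothing particular about these genes. After rescaling, 4 of the 13 were still past the threshold, 3 lower and 1 higher. Of the 4 synthesis genes, SRM was the only one in the table, and ODC1, AMD1 and SMS were not analysed here. Of the 6 oxidation and acetylation genes, PAOX and SAT2 were in the table, whereas SAT1, SMOX and AOC1 were not analysed here. None of the 4 hypusine genes, which turn spermidine into the modified residue of EIF5A, was in the table.

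SAT2 is related to the spermidine acetyltransferase SAT1. It had 129, 102 and 115 normalized counts in Scramble, against 60.0, 46.1 and 47.8 after OGT depletion. The groups did not overlap, and limma gave a log2 fold change of −1.15 with a standard error of 0.22 (adjusted p = 0.000147). After rescaling it was −0.45 (adjusted p = 0.0506), no longer past the threshold.

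OAZ3 encodes an antizyme, a protein of a family that binds ornithine decarboxylase. It had 17.7, 25.2 and 19.3 normalized counts in Scramble and 81.0, 48.2 and 41.0 in shOGT. All shOGT libraries were above all Scramble libraries, with library 4 the highest, and limma gave a log2 fold change of 1.36 with a standard error of 0.33 (adjusted p = 0.00114). Its exons overlap those of MRPL9 and TDRKH and of 2 antisense genes on the opposite strand and of AL589765.2 on its own strand, so part of its reads is uncertain. The antizymes OAZ1 and OAZ2 and the inhibitors AZIN1 and AZIN2 were not analysed here.

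SLC7A1, the main carrier of arginine, lysine and ornithine into cells, was the most abundant of these genes by normalized count. The Scramble libraries held 13032, 13827 and 13088 normalized counts and the shOGT libraries 3128, 3186 and 3526. The groups were far apart, and limma gave a log2 fold change of −2.02 with a standard error of 0.08 (adjusted p = 6.78e-11). After rescaling it was −1.31, still past a 2-fold change. The other 10 genes of the transport list were not analysed here.

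**Figure D3:**
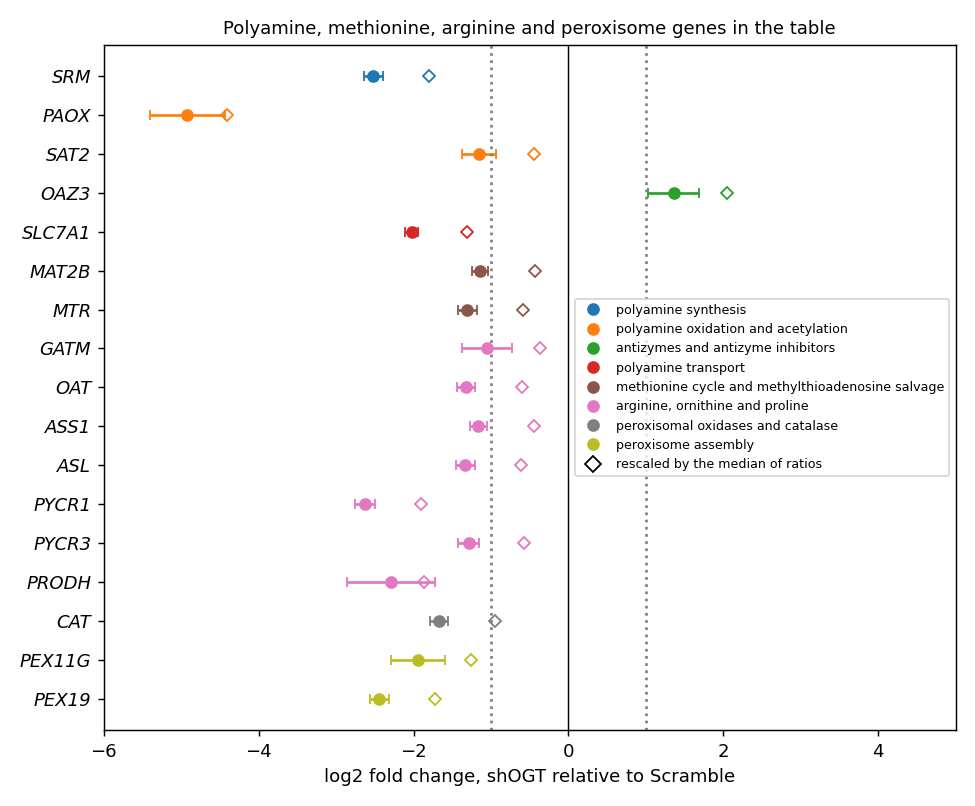
Log2 fold change of shOGT relative to Scramble (horizontal axis) for listed genes in the table, one gene per line, coloured by list. Filled points with standard error bars are the fit to the deposited values, open diamonds are values after rescaling by the median of ratios, and dotted lines mark a 2-fold change. Apart from OAZ3 the genes shown lie left of 0 on both scalings, and the diamonds of SRM, PAOX, SLC7A1, PYCR1, PRODH, PEX11G and PEX19 stay beyond the 2-fold line on that side.

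The methionine cycle supplies S-adenosylmethionine, from which the aminopropyl groups come. Of its 15 listed genes, MAT2B and MTR were in the table, both lower in shOGT. MAT2B, the regulatory subunit of methionine adenosyltransferase, was at 905 ± 65.4 normalized counts in Scramble and 408 ± 14.3 in shOGT (SD, n = 3 each). MTR, the methionine synthase, was at 772 ± 41.4 and 314 ± 44.7 (SD, n = 3 each). Their log2 fold changes of −1.14 and −1.31 moved to −0.43 and −0.59 after rescaling. MTAP, which clears the methylthioadenosine that SRM releases, was not analysed here.

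Of the 13 genes of arginine, ornithine and proline metabolism, the table held 8. Each of the 8 passed the test as lower in shOGT, as did 47.2% of all genes tested. Their median log2 fold change was −1.30, beside −1.54 for the lower genes of the whole table. After rescaling all 8 stayed below 0 and the median was −0.59. PYCR1, which makes proline in mitochondria, had 2922, 2499 and 2263 normalized counts in Scramble and 483, 349 and 415 in shOGT. Of this list it was the gene with the log2 fold change nearest to that of SRM, at −2.62 with a standard error of 0.13 in limma (adjusted p = 2.41e-10). Exons of MYADML2 on the same strand cover 14.1% of the exon bases of PYCR1, and an antisense gene covers 15.6%. The related PYCR3 had a smaller difference, at −1.29.

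OAT, which moves ornithine between the urea cycle and proline synthesis, was at 1000.3 ± 71.9 normalized counts in Scramble and 402 ± 49.3 in shOGT (SD, n = 3 each). ASS1 and ASL, which make arginine from citrulline, had log2 fold changes of −1.16 and −1.33. ASS1 has many pseudogenes, and reads may have been split among them, while AC068533.4 on the same strand covers 17.6% of the exon bases of ASL. GATM, which transfers the amidino group of arginine and frees ornithine, was at −1.05, and at −0.89 without shOGT library 5 and −0.95 without Scramble library 3, under a 2-fold change. PRODH, the first enzyme of proline breakdown, had 15.1, 7.21 and 2.76 normalized counts in Scramble and 1.05, 1.07 and 0 in shOGT, so that its log2 fold change of −2.29 rests on few reads. MYC itself was at −1.07 on the deposited scaling. It was under a 2-fold change after rescaling, at −0.35, and without shOGT library 5, at −0.97. By quantitative PCR the paper reported no significant decrease of c-Myc mRNA in OGT-depleted HT-29 cells, while the protein fell. The reason for the difference from these libraries was not tested.

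Levels of different genes were compared as normalized counts per kilobase of the transcript with the longest coding sequence. In Scramble, SRM stood at rank 4 of the 15 listed genes in the table, at 845 ± 39.0 per kilobase (SD, n = 3), below PYCR1, SLC7A1 and ASS1 and above OAT. Its range overlapped with neither neighbour in that order. In shOGT it was at rank 7, at 148 ± 23.1 per kilobase, and its range overlapped with that of ASL, the next below. SRM was above 93.3% of the genes of the table in its Scramble level per kilobase.

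PAOX stood at rank 12 of the 15 in Scramble, at 35.4 ± 8.46 per kilobase (SD, n = 3). Its range lay between those of MTR above and OAZ3 below, with the lowest PAOX library at 28.6 and the highest OAZ3 library at 28.4 per kilobase. In shOGT it was at rank 14, at 0.786 ± 0.682 per kilobase, and overlapped with PRODH. PAOX was above 46.9% of the genes of the table in Scramble. With all exons of a gene as its length, SRM kept rank 4 and PAOX rank 12 in Scramble, at 564 and 28.9 per kilobase.

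**Figure D4:**
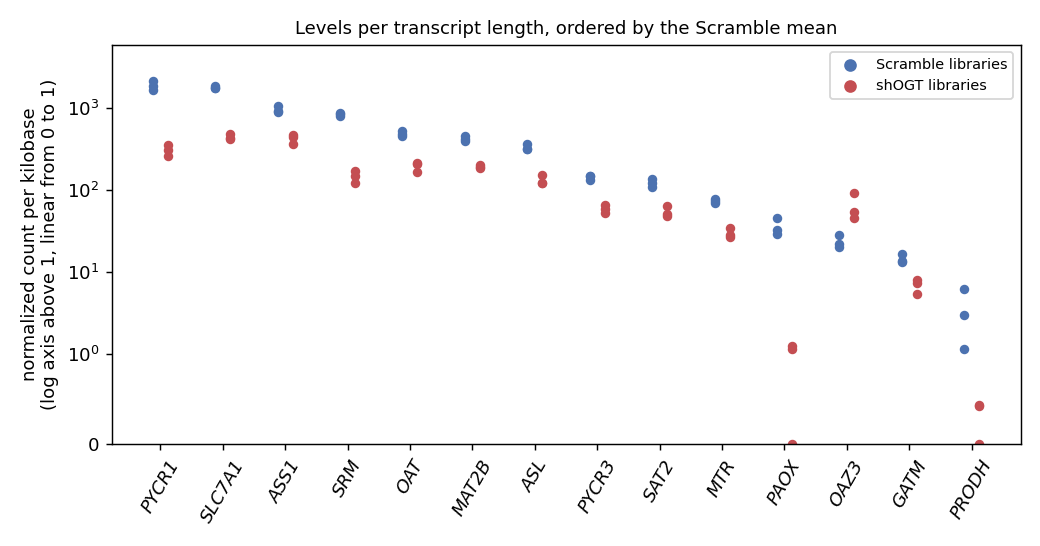
Normalized counts per kilobase of transcript (vertical axis, logarithmic above 1 and linear from 0 to 1) for 14 of the 15 listed genes, ordered by their Scramble mean. Blue points are Scramble libraries and red points shOGT libraries. The blue points of SRM span 801 to 877 and its red points 124 to 170, and PAOX falls from 28.6 or more to 1.23 or less.

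Of the genes that GENCODE 29 places within 250 kb of PAOX, the table held 5 of 19 other protein-coding genes, and each of the 5 was lower in shOGT. FUOM, a fucose mutarotase whose start lies 21.2 kb from that of PAOX, had the largest difference of the 5, with 320, 282 and 249 normalized counts in Scramble and 41.0, 16.1 and 26.2 in shOGT. In limma it stood at −3.40 on the log2 scale, with a standard error of 0.28 (adjusted p = 4.26e-08). KNDC1, a guanine nucleotide exchange factor, was at −2.69 and ZNF511 at −1.73. ZNF511 shares its locus with the read-through gene ZNF511-PRAP1, which leaves its count uncertain. ADAM8, a membrane metalloprotease, and SCART1, a scavenger receptor gene, were at −1.21 and −1.28, and at −0.51 and −0.58 after rescaling. ECHS1 and MTG1, between or beside these genes, were not analysed here. Of the 5671 genes tested, 1455 had at least 5 others of the table within 250 kb, and for 184 of these (12.6%) the gene and all its listed neighbours were lower, as around PAOX.

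**Figure D5:**
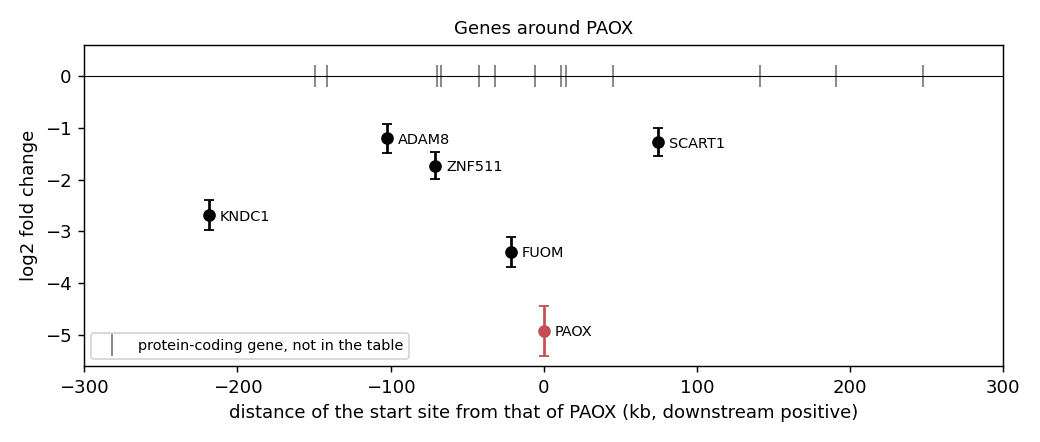
Log2 fold change of shOGT relative to Scramble (vertical axis, with standard errors) of genes in the table against the distance of their start site from that of PAOX (horizontal axis), in kb. Grey ticks at 0 mark protein-coding genes that were not in the table and have no value. The 5 listed neighbours of PAOX lie between −1.21 and −3.40, all above PAOX at −4.92.

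The genes whose values followed SRM most closely over the 6 libraries, by Pearson r on log2(normalized count + 1) among genes with a mean of at least 10, were CCNB2, UGDH and MICALL1, each with r over 0.999. CCNB2 is a mitotic cyclin and UGDH makes UDP-glucuronic acid. CCNB2 had 1631, 1695 and 1647 normalized counts in Scramble and 864, 760 and 825 in shOGT, so library 1 was the lowest of its group and library 5 the lowest of the other, as in SRM. The genes nearest to PAOX were C22orf39, CHMP2A and VLDLR-AS1. CHMP2A, a subunit of the ESCRT-III complex, had 1114, 983 and 1016 in Scramble and 487, 392 and 496 in shOGT, with library 1 the highest and library 5 the lowest, as in PAOX. Of 4816 other genes, 518 had an r over 0.99 with SRM and 148 with PAOX. The libraries share their group and depth, the table holds only genes that differ between the groups, and r takes no account of the size of a fold, so these values are a description.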

How the data were processed

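Libraries were matched to table columns by the number in the labels. SRM, PAOX and all gene lists were chosen with earlier results of these data known. The authors deposited a signal table, the reads of each gene divided by 1 size factor per library, with their own group means, log2 fold changes and p-values, which served here only to see which genes the table leaves out. Multiplied by the size factor, 100% of the values were whole reads within 0.02. Per the labels, the processing named cutadapt 1.9, HISAT2 2.0.4, UMI-tools, StringTie 1.3.4d, DESeq2 and edgeR, with a mouse build, but identifiers and positions of all 5681 genes are those of GENCODE 29 on GRCh38. Use of strand in counting is not given in the sources used here, and the labels and the paper describe the library kit differently.

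limma's trend method (limma 3.58.1, R 4.3.3) was fitted to the log2 values, with a pseudocount of 1 and group as sole covariate. Genes needed a value of 1 or more in 3 or more libraries, which 5671 met. A gene was called past a 2-fold change at a Benjamini-Hochberg adjusted p under 0.05. The genes had already been selected by the authors on the same 6 libraries. The adjusted p-values of single genes are therefore descriptions and do not measure a false discovery rate. Alternatives were size factors from the median of ratios over the table, a pseudocount of 0.1, no filter, a mean of at least 5, each library left out, an ordinary linear model, and count tests on those reads by edgeR 4.0.16 and DESeq2 1.42.0 with the authors' size factors. The limma, edgeR and DESeq2 fits were tested on simulated counts. No pair of libraries agreed within sampling noise (chi-square). Named were the listed genes in the table, genes of the table within 250 kb of SRM or PAOX, the 3 genes most like each, the 3 largest changes of each peroxisome list, OGT and MYC. Markers, and genes named as lying outside the table, were chosen besides this rule. Some genes that the rule names are not reported here.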

Additional observations from a re-analysis of the deposited data

How the results depend on the processing

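SRM and PAOX were lower in shOGT after rescaling, with a pseudocount of 0.1, with each library left out, and in edgeR and DESeq2. Rescaling by the median of ratios moved the log2 fold change of SRM from −2.52 to −1.80. A pseudocount of 0.1 moved that of PAOX to −6.33, while edgeR gave −5.39 and DESeq2 −5.50. With each library left out, SRM ran from −2.63 to −2.40 and PAOX from −5.22 to −4.36. Of the 15 listed polyamine, methionine and arginine genes, 6 were past the threshold after rescaling (1 higher and 5 lower), or 4 of 13 without SRM and PAOX, which are counted as a description. With a library left out, 13 to 15 of the 15 were past it. Over the whole table, rescaling gave 4069 genes, 2980 higher and 1089 lower, against 2959 and 2677, and leaving out a library gave 5403 to 5543. The 26 other named genes counted here leave out the genes most like SRM and PAOX, which were not followed through the alternatives. Of these 26, 14 were no longer past a 2-fold change at adjusted p under 0.05 after rescaling, and 0 reversed. Since the table leaves out genes under a 2-fold change, rescaling over it cannot decide whether these 14 are past that threshold. Without shOGT library 5, GATM (−0.89) and MYC (−0.97) were not past it, and without Scramble library 3 GATM (−0.95) was not. The filters, the ordinary linear model, edgeR and DESeq2 changed no call among those of the 26 genes that they tested. With all exons as the length, SRM was at 564 per kilobase in Scramble. The wider E-box CANNTG, which includes CACGTG, was in 68.7% of promoters. No paired analysis was possible because the groups share no replicate number. With 2, 0 and 2 reads of PAOX in shOGT, its level there is known only within the counting interval.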

Other observations

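PAOX works in peroxisomes, where catalase removes the hydrogen peroxide that it releases. Of 10 listed peroxisomal oxidases with catalase, CAT was in the table, at 910, 797 and 864 normalized counts in Scramble and 274, 239 and 296 in shOGT. In limma it stood at −1.67 on the log2 scale with a standard error of 0.11 (adjusted p = 6.35e-09), and at −0.95 after rescaling, under a 2-fold change. PEX19, the receptor that brings membrane proteins to peroxisomes, had 1025, 961 and 1009 normalized counts in Scramble and 201, 154 and 197 in shOGT. In limma it stood at −2.44 on the log2 scale with a standard error of 0.12 (adjusted p = 3.58e-10). Exons of AL139011.2 on the same strand cover 16.3% of its exon bases. PEX11G, of the family that acts in peroxisome division, was at −1.94.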
